A study of Homo sapiens with 9 samples.

Results

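Profile group 1 is a set of 3 RNA samples from BON-1 cells in which RABL6A was knocked down: KD1-1 and KD1-3, which carry the label of short hairpin RNA (shRNA) 1 with replicate numbers 1 and 3, and KD2-2, which carries the label of shRNA 2 with replicate number 2. These 3 of the 9 arrays of the series were set against the 3 vector arrays EV-1, EV-2 and EV-3. They were selected on their measured profiles, because they correlated best with each other over all genes although 1 of them has the other shRNA label. Everything that sets group 1 against vector is therefore a description with no test. The remaining knockdown arrays, KD1-2, KD2-1 and KD2-3, are called profile group 2.

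BON-1 is a long-established line of human tumour cells that came from a pancreatic neuroendocrine tumour (PNET). All samples were BON-1 cells with a pLKO.1 lentiviral construct, which encoded an shRNA against RABL6A in both knockdown groups and none in the control. The labels give 3 arrays each to shRNA 1, shRNA 2 and vector, from RNA of separately generated sets of cells, and name no clone, hairpin sequence or time after transduction. They do not say how far these sets were separate cultures. The study concerned the part of RABL6A in passage from G1 into S phase and in proliferation of these tumour cells. RNA was hybridised in 1 colour to Illumina human expression BeadChips.

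The RAB-like GTPase RABL6A is encoded by RABL6. Entry into S phase is held back by the retinoblastoma protein RB1 and its relatives, which bind E2F transcription factors at the promoters of replication genes, and cyclin-dependent kinases release the E2Fs by phosphorylating these pocket proteins. Genes of G2 and mitosis are mostly regulated through another promoter element, the cell cycle genes homology region (CHR), which recruits complexes of the DREAM and MuvB proteins. Genes of the interferon response carry the interferon-stimulated response element (ISRE), which binds STAT and IRF factors.

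The values that defined the group were the correlations of the log2 signals over 12498 genes. KD2-2 correlated at 0.995 with KD1-1 and 0.989 with KD1-3, and KD1-1 at 0.988 with KD1-3. With KD2-1 and KD2-3, the arrays that share its label, KD2-2 correlated at 0.933 and 0.939. KD1-2, which has the label of shRNA 1, correlated with these 2 arrays at 0.994 and 0.989. Group 1 arrays correlated with vector arrays at 0.933 to 0.960, and the vector arrays with each other at 0.995. Genes are not independent replicates, so these values carry no p. The profiles thus go against the shRNA label of KD2-2 or of its partners, and the labels do not settle which hairpin any of these arrays carried. Whether KD2-2 and KD1-2 were exchanged was not tested. The comparison that follows the labels keeps them as given, and its SE and p-values depend on that. Counts without KD2-2 or another array are given below where they moved by more than 1.5 times, and for the E2F, G1/S and G2/M lists.

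**Figure D1:**
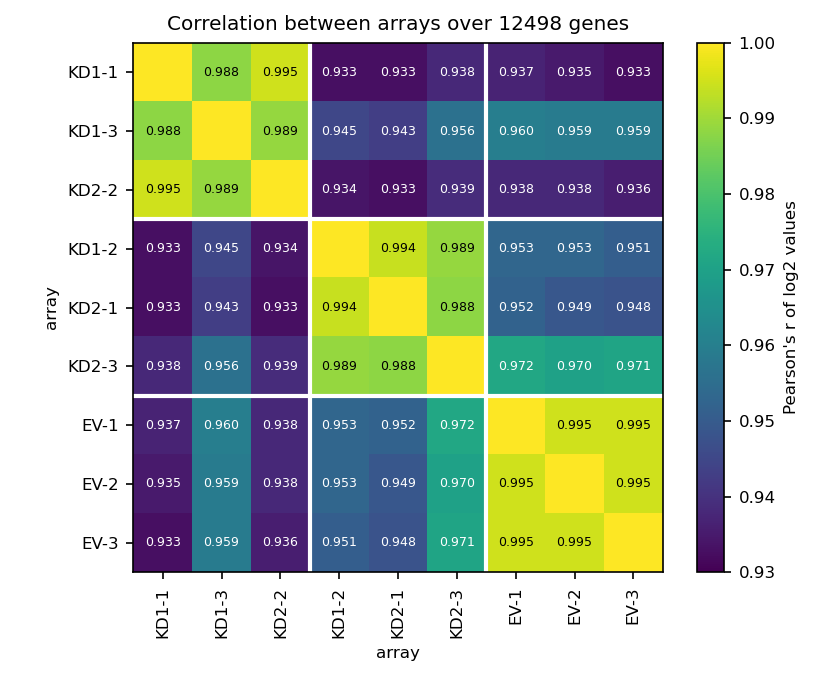
Pearson's r of log2 signals over 12498 genes for each pair of the 9 arrays, with group 1, group 2 and vector arrays in that order, divided by white lines, on both axes. Pairs within group 1 lie at 0.988 to 0.995, and pairs of a group 1 and a vector array at 0.933 to 0.960.

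The promoters below belong to genes that stood out in group 1 and show the elements through which their gene classes are known to be regulated. Each is the 150 bases before the gene's start in RefSeq (GRCh38.p14), written 5′ to 3′ on the gene's own strand with the matched element in capitals. They were picked from the 3 members of each list with the largest differences past the fold rule given below whose window holds the element. UHRF1 (plus strand, chr19:4909351-4909500) and DTL (plus strand, chr1:212035598-212035747) act around DNA replication, the first in maintaining DNA methylation and the second in degrading the licensing factor CDT1. E2F2 (minus strand, chr1:23531234-23531383) encodes an E2F factor and RBL1 (minus strand, chr20:37095998-37096147) the pocket protein p107. All 4 have E2F letters in capitals.
UHRF1: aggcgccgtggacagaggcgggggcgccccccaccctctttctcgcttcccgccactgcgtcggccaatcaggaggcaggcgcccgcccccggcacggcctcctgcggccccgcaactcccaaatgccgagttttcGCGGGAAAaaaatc
DTL: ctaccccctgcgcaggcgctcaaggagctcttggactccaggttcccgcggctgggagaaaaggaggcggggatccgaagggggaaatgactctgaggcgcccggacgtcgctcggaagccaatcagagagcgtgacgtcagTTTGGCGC
E2F2: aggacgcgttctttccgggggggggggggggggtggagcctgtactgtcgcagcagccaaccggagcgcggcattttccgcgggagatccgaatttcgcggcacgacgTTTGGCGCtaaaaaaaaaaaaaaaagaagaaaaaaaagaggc
RBL1: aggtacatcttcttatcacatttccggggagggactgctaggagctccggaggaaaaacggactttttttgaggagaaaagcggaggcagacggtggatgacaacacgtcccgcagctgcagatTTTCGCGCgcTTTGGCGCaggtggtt
CDCA5 (minus strand, chr11:65084041-65084190), which encodes the cohesion factor sororin, and NCAPG (plus strand, chr4:17810829-17810978), a condensin subunit, have CHR letters in capitals.
CDCA5: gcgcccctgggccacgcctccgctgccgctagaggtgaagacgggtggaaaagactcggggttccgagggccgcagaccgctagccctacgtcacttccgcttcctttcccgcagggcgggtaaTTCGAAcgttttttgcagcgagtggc
NCAPG: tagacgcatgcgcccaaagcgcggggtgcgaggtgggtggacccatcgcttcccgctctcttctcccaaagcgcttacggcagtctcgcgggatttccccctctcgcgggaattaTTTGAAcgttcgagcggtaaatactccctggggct
IFIT1 (plus strand, chr10:89392473-89392622) and SAMD9 (minus strand, chr7:93117980-93118129), both antiviral factors induced by interferon, have the ISRE in capitals, which IFIT1 holds at 2 places.
IFIT1: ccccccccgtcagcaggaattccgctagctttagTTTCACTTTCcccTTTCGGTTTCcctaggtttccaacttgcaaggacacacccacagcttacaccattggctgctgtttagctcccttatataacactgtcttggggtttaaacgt
SAMD9: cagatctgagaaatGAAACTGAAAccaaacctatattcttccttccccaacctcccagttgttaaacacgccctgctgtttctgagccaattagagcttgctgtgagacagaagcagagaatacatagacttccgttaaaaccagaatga

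Over the 250 bases before the start and on both strands, an E2F element (TTTCCCGC, TTTGGCGC, TTTCGCGC or TTTGCCGC) was found in 15 of 52 promoters of the G1/S and replication list (28.8%) and in 6 of 17 of the E2F and pocket protein list (35.3%). The same letters occurred in 4.43% of the 10045 promoters of tested genes and in 2.79% of all 27305 in the table. A CHR (TTTGAA or TTCGAA) was found in 31 of 66 G2/M promoters (47%), against 9.95% of tested genes and 14.6% of all. The CCAAT box, read as CCAAT, was in 44 of 66 G2/M promoters (66.7%) and in 35.3% of those of tested genes. The ISRE was found in 20 of 36 interferon promoters (55.6%), against 2.46% of tested genes and 3.07% of all. Such matches describe these windows and show no binding. The lists were drawn up from known pathway membership, which partly rests on such elements. They were also written with earlier results of these data known, so the shares of their members past the fold rule, given below, are descriptions.

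RABL6 was lower on every group 1 array than on every vector array. It read 6.01 in KD1-1, 5.22 in KD1-3 and 5.69 in KD2-2, against 7.57, 7.73 and 7.82 in EV-1, EV-2 and EV-3 (log2 signal after background correction and quantile normalization). The mean difference was -2.07, 4.19-fold lower than in vector cells, and KD1-3 was the lowest of the 3. In the comparison that follows the labels (mean of shRNA 1 and shRNA 2 minus vector, 9 arrays), RABL6 fell by 1.99 (log2; SE 0.19; limma adjusted p = 0.0014). Before correction its signals were 162.8, 130.4 and 151.8 in group 1, close to the median signals of 119.5 to 128.8 of all arrays, against 294.5, 341.3 and 333.9 in vector cells, so the size of the fold depends on the background step.

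Depth cannot be given for arrays; their number limits the precision. Between 41.42% and 44.89% of the 47231 probes were detected on each array, and the 13 defining neuroendocrine markers, among them the granule proteins CHGA and CHGB, were detected on all 3 arrays of group 1 and of vector. By the fold rule given below, 1 of the 13 was higher in group 1 (SCG5) and 3 were lower (NKX2-2, FEV and SLC18A1). CHGA overlapped, at 14.46, 14.45 and 14.32 in group 1, against 14.27, 14.25 and 14.36 in vector cells. Since RNA was taken from whole cultures, fewer cells of a kind and less RNA per cell cannot be told apart.

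A gene is counted as past the fold rule where the means differed by at least 1 on the log2 scale, which is 2-fold, and all 3 group 1 arrays lay on 1 side of all 3 vector arrays. Of 12498 genes, 759 were higher in group 1 by this rule (6.07%) and 904 lower (7.23%). Of these 94 and 132 differed by at least 2 on the log2 scale. The values ran from -3.81 to 3.89. Just inside the rule lay C1orf53 at 1.0004 and ARL6IP4 at -1.0029, and just outside C6orf120 at 0.9995 and TNFSF9 at -0.9996. With each array centred on its median in place of quantile normalization, the split was 534 higher and 1196 lower, since the median of all genes was then -0.077 in place of 0.0472. Without KD2-2 the counts, like those without any other single array, stayed within 681 to 888 higher and 858 to 1019 lower. The 3 arrays labelled shRNA 1, in which KD1-2 takes the place of KD2-2, gave 391 higher and 595 lower.

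The test that follows the labels called 1067 genes higher (8.54%) and 1011 lower (8.09%) in the 6 knockdown arrays than in vector. It holds the 3 group 1 arrays, so it is no independent support for a group 1 difference, but it does not use the profile grouping. Each shRNA label holds arrays of both profiles, so the gap between the profiles enters its SE. For DKK1 the SE was 1.67, beside SDs of 0.09 within group 1 and 0.32 within group 2, which the choice of arrays narrows. A gene that did not pass can therefore still lie far from vector in group 1. Since the labels do not say how far the sets were separate cultures, the test gives p-values that cover only the variation among these samples. It rests on each vector array, because 291 genes were called higher and 259 lower without EV-1, 257 and 232 without EV-2, and 268 and 241 without EV-3. Of 49 genes named by rule that it called, 23, 24 and 23 lost their call without EV-1, EV-2 and EV-3.

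**Figure D2:**
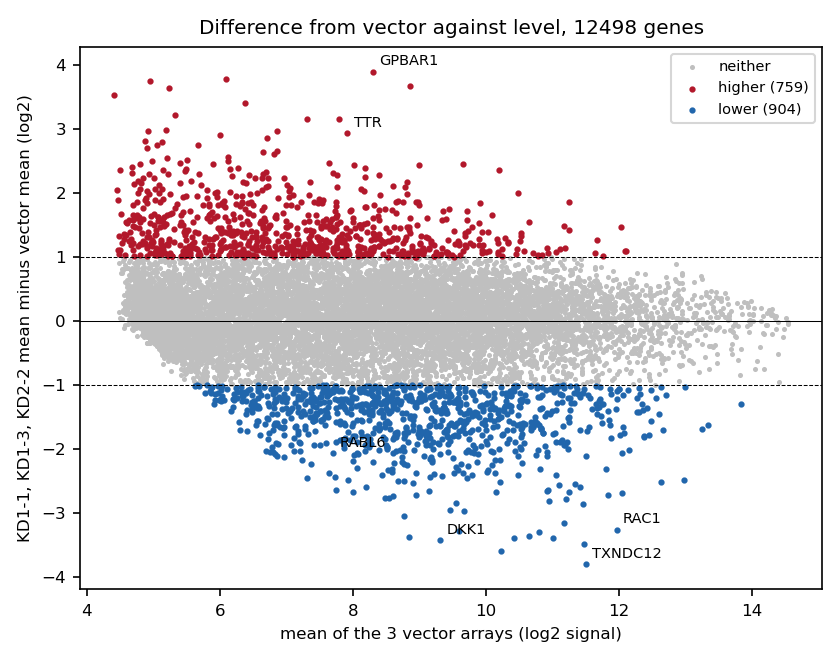
Mean of KD1-1, KD1-3 and KD2-2 minus the vector mean (log2) against the vector mean (log2 signal) for 12498 genes. Points past the fold rule are coloured by direction, and dashed lines mark differences of 1 on the log2 scale; the lowest point is TXNDC12 at -3.81 and the highest GPBAR1 at 3.89.

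The genes furthest above vector were led by GPBAR1, the cell-surface receptor for bile acids. It read 12.38 in KD1-1, 11.79 in KD1-3 and 12.40 in KD2-2, against 8.36, 8.20 and 8.33 in vector cells, a mean difference of 3.89 or 14.8-fold. PLA2G10, a secreted phospholipase A2, read 10.28, 9.10 and 10.22 in group 1 and 6.02, 6.0 and 6.26 in vector cells. All 3 arrays of group 1 were thus far above every vector array, with KD1-3 the lowest. DIO1, the deiodinase that activates thyroid hormone, averaged 3.75 above vector, although it was detected on 1 of 3 vector arrays and 1 of its other probes gave 1.72. TGM3, a transglutaminase of epithelia, read 12.82, 12.06 and 12.74 in group 1, against 8.96, 8.89 and 8.75 in vector cells. MB, the oxygen-binding protein myoglobin, went undetected in all vector cells and was at least 7.69-fold higher in group 1. It was undetected in group 2 as well, so it was kept only through its detection in group 1 and could only come out higher there. Its other, dimmer probe gave a difference of 2.52, which is below that bound.

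The other members of the 12 highest had differences between 2.97 and 3.63. They were SMLR1, the secreted protein NELL1, the GABA-degrading enzyme ABAT, the proton pump subunit ATP6V1B1, VSTM2L, the endocytic adaptor PACSIN1 and ENPP5. In the labelled test ABAT rose by 2.38 (SE 0.50, limma adjusted p = 0.0161), ENPP5 by 2.23 (SE 0.44, limma adjusted p = 0.0135) and SMLR1 by 2.60 (SE 0.66, limma adjusted p = 0.0299). Each of these 3 calls was lost without any single vector array, with adjusted p up to 0.0757, 0.0675 and 0.111, and that of SMLR1 also without KD1-1 or KD1-3. The remaining 9 did not pass it, with limma adjusted p from 0.0717 for PACSIN1 to 0.76 for VSTM2L.

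Furthest below vector was TXNDC12, a thioredoxin-like protein of the endoplasmic reticulum. It read 7.52 in KD1-1, 7.95 in KD1-3 and 7.63 in KD2-2, against 11.47, 11.51 and 11.54 in vector cells, a difference of -3.81. CMTM7, a membrane protein of the MARVEL family, read 6.59, 6.76 and 6.55 in group 1, against 10.21, 10.17 and 10.31 in vector cells. B4GALT5, a galactosyltransferase of glycolipid synthesis, read 8.03, 8.16 and 7.77 in group 1 and 11.41, 11.53 and 11.50 in vector cells. In each of these genes the spread within group 1 was far smaller than its distance from vector. This follows in part from the choice of arrays by correlation, which narrows their spread, and of genes by distance. CMTM7 fell by 2.80 in the labelled test (SE 0.46, limma adjusted p = 0.00677). Of its other probes 1 gave -3.18 and a dim one -0.37.

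DKK1, a secreted inhibitor of WNT signalling, read 5.97, 5.91 and 5.79 in group 1, against 9.57, 9.33 and 9.04 in vector cells. RAC1, a GTPase of the actin cytoskeleton, read 8.74, 8.74 and 8.64 in group 1 and 11.99, 11.97 and 11.95 in vector cells. A second, dimmer probe gave -0.62 for DKK1 and -1.26 for RAC1 in place of -3.42 and -3.26, so direction is shared and size is not. The death receptor TNFRSF21 differed by -3.39, the calcium-binding protein S100A16 by -3.16 and DDIAS, which protects cells from DNA-damage-induced death, by -3.37. CDC45, MAD2L1, RRM2 and CDK2 complete the 12 lowest and are described with the cell cycle lists.

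**Figure D3:**
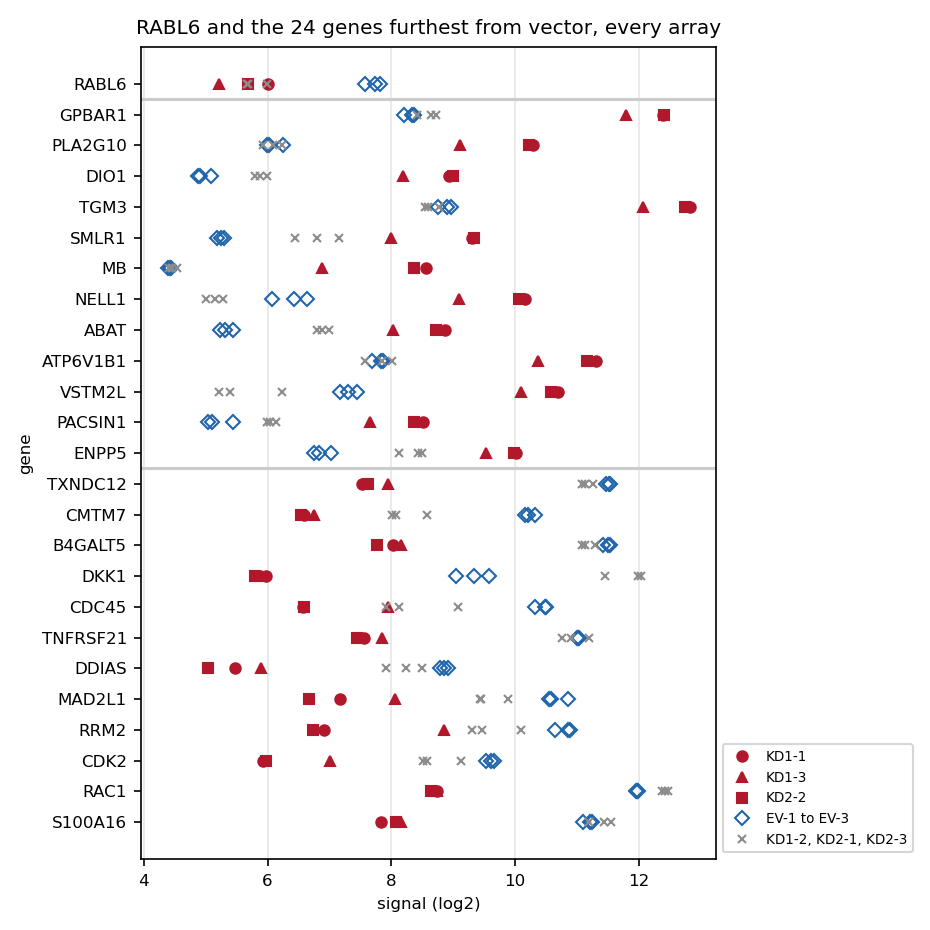
Signal (log2) on every array for RABL6 and, between the grey lines, the 12 genes furthest above and the 12 furthest below vector by the fold rule. Filled red marks are KD1-1 (circle), KD1-3 (triangle) and KD2-2 (square), open blue diamonds the 3 vector arrays and grey crosses KD1-2, KD2-1 and KD2-3; the red marks never overlap the blue ones, which the rule requires.

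The list of G1/S, origin licensing and DNA replication genes was lower across most of its members. Of 61 tested members 39 were past the fold rule, all lower (63.9%, against 7.23% of all genes), and 0 higher. The median difference was -1.41, against 0.0472 over all genes. CDC45, a subunit of the replicative helicase, read 6.57 in KD1-1, 7.95 in KD1-3 and 6.59 in KD2-2, against 10.49, 10.31 and 10.49 in vector cells. RRM2, the regulatory subunit of the reductase that makes deoxynucleotides, read 6.91, 8.85 and 6.73 in group 1 and 10.89, 10.86 and 10.65 in vector cells. Both genes were far lower on KD1-1 and KD2-2 than on KD1-3, and lower on KD1-3 than on any vector array.

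CDK2, the kinase that drives S-phase entry with cyclin E, read 5.93, 7.01 and 5.98 in group 1, against 9.53, 9.60 and 9.66 in vector cells; a second dim probe gave -1.03 in place of -3.29. FEN1, the flap nuclease of lagging-strand synthesis, differed by -2.67. UHRF1, whose promoter is printed above, read 8.23, 9.50 and 8.23 in group 1, against 11.08, 11.04 and 11.08 in vector cells. DTL read 4.67, 5.04 and 4.52 in group 1, where it was detected on 1 of 3 arrays, and 6.86, 6.92 and 6.79 in vector cells. In the labelled test 37 of the 61 members fell and 0 rose, beside 8.09% of all genes lower. There CDC45 fell by 2.73 (SE 0.51, limma adjusted p = 0.0112), a call lost without any single vector array (adjusted p up to 0.0603). RRM2, CDK2 and FEN1 did not pass, with limma adjusted p of 0.0778, 0.0879 and 0.0873. Without KD2-2, 38 members were past the fold rule and lower.

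In the list of E2F, DP and pocket proteins, which also holds FOXM1 and LIN9, 20 genes were tested. Of these 7 were lower by the fold rule (35%, beside 7.23% of all genes) and 0 higher, with a median of -0.65. Without KD2-2, 5 were lower. E2F7, a repressing E2F, read 5.28 in KD1-1, 6.16 in KD1-3 and 5.86 in KD2-2, against 8.46, 8.60 and 8.57 in vector cells. E2F2, an activating E2F, read 8.03, 9.23 and 8.22 in group 1, against 10.91, 10.82 and 10.72 in vector cells. E2F2 fell by 2.16 in the labelled test (SE 0.29, limma adjusted p = 0.00373). FOXM1, the transcription factor of mitotic genes, differed by -1.72 and the repressor E2F8 by -1.24. Both also passed the labelled test (limma adjusted p = 0.0132 and 0.0136), though not without any single vector array (adjusted p up to 0.0675 and 0.0772).

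RBL1 read 5.10, 5.43 and 5.32 in group 1 and 6.37, 6.22 and 6.38 in vector cells. Named outside the rule because of its role, RB1 read 6.44, 6.83 and 6.81 in group 1, against 7.49, 7.51 and 7.37 in vector cells, a difference of -0.76 that does not meet the fold rule. E2F1 overlapped, at 5.36, 6.57 and 6.31 in group 1 and 6.92, 6.67 and 5.75 in vector cells. The list therefore did not move as a block, and its 7 members past the rule were E2F2, E2F3, E2F7, E2F8, FOXM1, RBL1 and LIN9.

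The list of G2/M and mitosis genes had the largest share of any of the 28 lists past the rule. Of 76 tested members 67 were lower (88.2%, beside 7.23% of all genes) and 0 higher, with a median of -1.70. MAD2L1, the spindle checkpoint protein MAD2, read 7.17 in KD1-1, 8.05 in KD1-3 and 6.68 in KD2-2, against 10.85, 10.55 and 10.57 in vector cells, and a dimmer second probe gave -2.33 in place of -3.36. CDCA5 read 7.61, 8.98 and 7.81 in group 1, against 10.89, 10.98 and 10.99 in vector cells. CENPU, a centromere protein, read 5.56, 6.58 and 5.44 in group 1 and 8.82, 8.48 and 8.50 in vector cells. In all 3 genes KD1-3 lay above KD1-1 and KD2-2 and below every vector array.

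NUSAP1, a spindle microtubule protein, differed by -2.72 and its second probe by -2.67. In the labelled test 25 of the 76 members fell and 0 rose, beside 8.09% of all genes lower. The 4 genes named from this list did not pass it, with limma adjusted p of 0.0678 for MAD2L1, 0.0906 for CDCA5, 0.0861 for CENPU and 0.112 for NUSAP1. In group 2, which is compared with the same vector arrays, their differences were -1.07, -0.79, -0.78 and -0.75. Without KD2-2, 65 members were past the fold rule, and without KD1-3 69.

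Homologous recombination and Fanconi anaemia genes were lower in 17 of 25 tested members (68%, beside 7.23% of all genes) and higher in 0, with a median of -1.44; the labelled test called 16 lower and 0 higher. EXO1, a nuclease that resects DNA ends, differed by -2.38, the helicase BLM by -2.37 and BARD1 by -2.08. These 3 fell in the labelled test (limma adjusted p = 0.0285, 0.0139 and 0.0293) but not without any single vector array (adjusted p up to 0.109, 0.0699 and 0.12), and BARD1 also lost its call without KD1-1 or KD2-1.

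Core histones were lower in 3 of 15 members (20%, beside 7.23% of all genes), with H2AX, the variant phosphorylated at DNA breaks, at -1.89, H4C3 at -1.30 and H2BC12 at -1.16. Only H2AX of these passed the labelled test (limma adjusted p = 0.0349), and it did not without any single vector array, KD1-3 or KD2-1 (adjusted p up to 0.133). Among 16 cell cycle inhibitors and G1 cyclins and kinases 2 were lower (12.5%, beside 7.23% of all genes) and 0 higher, with 1 lower without KD1-1 or EV-3. CDK4, the kinase that phosphorylates RB1 with D-type cyclins, read 9.39, 9.70 and 9.39 in group 1, against 11.75, 11.84 and 11.84 in vector cells. It did not pass the labelled test (limma adjusted p = 0.159), and differed by -0.29 in group 2. CDKN3, a phosphatase of CDKs, differed by -1.03. CDKN1A, the CDK inhibitor p21, overlapped between the groups, at 11.10, 10.97 and 11.03 in group 1 and 11.03, 10.78 and 10.94 in vector cells. The 24 tested p53 targets had 0 members past the rule in either direction.

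KD1-3 was the array of group 1 nearest to vector. By array, 936 genes were at least 1 above and 1084 at least 1 below the vector mean in KD1-1, 907 and 1035 in KD2-2, but 521 and 682 in KD1-3. A vector array set against the other 2 gave at most 6 genes above and 5 below. KD1-3 was the nearest of the 3 to vector in 1359 of the 1663 genes past the rule (81.7%). This held for 39 of 39 such genes of the G1/S list and 67 of 67 of the G2/M list. The mean difference over the G1/S list was -1.60 in KD1-1, -0.94 in KD1-3 and -1.57 in KD2-2. Over the G2/M list it was -2.06, -0.92 and -2.02. KD2-3, the group 2 array numbered 3, was likewise the nearest of its group to vector in these lists. Over the G1/S list the means were -0.95 in KD1-2, -0.98 in KD2-1 and -0.53 in KD2-3. Over the G2/M list they were -0.95, -1.01 and -0.40. Whether the replicate number has a part in this was not tested.

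Among the 5 genes with the largest gap of KD1-3 above both others were 4 of cell division: RRM2, PLK1, TOP2A and NCAPG. PLK1, a kinase of mitotic entry, read 6.78 in KD1-1, 8.62 in KD1-3 and 6.73 in KD2-2, against 8.94, 8.74 and 8.91 in vector cells. TOP2A, the topoisomerase that untangles sister chromatids, read 9.02, 10.94 and 9.16 in group 1 and 11.36, 11.48 and 11.41 in vector cells. NCAPG read 7.53, 9.23 and 7.46 in group 1, against 10.43, 10.47 and 10.57 in vector cells. KD1-3 thus came within 0.12 of a vector array for PLK1 but stayed 1.20 below the nearest for NCAPG.

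In the other direction KD1-3 lay lowest for NACAD, the synaptotagmin SYT11, MB, the hormone somatostatin (SST) and the retinol dehydrogenase RDH12. SYT11 read 7.92, 6.42 and 8.13 in group 1, against 5.10, 5.32 and 5.0 in vector cells. RDH12 went undetected in all vector cells and was at least 2.21-fold higher in group 1. Like MB it was undetected in group 2 and kept only through group 1. NACAD, detected within group 1 on KD1-1 and KD2-2 only, was at least 1.91-fold higher. RABL6 read lowest on KD1-3, with a raw signal of 130.4 beside an array median of 119.5. On KD1-1 and KD2-2 it was 162.8 and 151.8, beside medians of 123.2. These signals are too close to background to set the order of the 3 arrays in RABL6 against the size of their profiles.

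**Figure D4:**
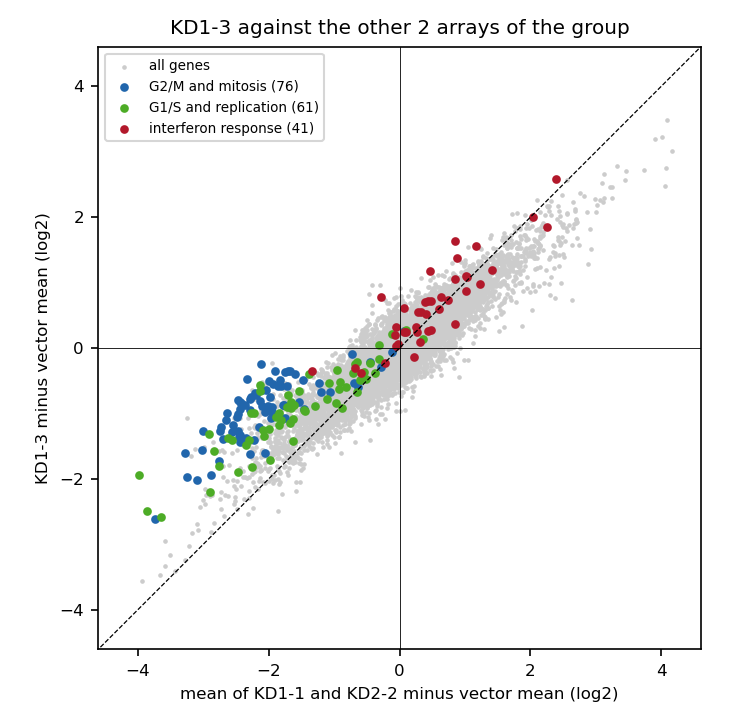
KD1-3 minus the vector mean against the mean of KD1-1 and KD2-2 minus the vector mean (log2), for all 12498 genes in grey and 3 gene lists in colour, with equal values on the dashed line. G2/M genes (blue) and G1/S genes (green) lie above the line, on average at -0.92 and -0.94 in KD1-3 and at -2.06 and -1.60 in KD1-1, while interferon genes (red) spread around it.

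Interferon response genes were higher in 9 of 41 tested members (22%, beside 6.07% of all genes) and lower in 1, with a median of 0.44. IFIT1, which binds foreign RNA ends, read 10.04 in KD1-1, 10.23 in KD1-3 and 10.02 in KD2-2, against 7.14, 7.15 and 8.64 in EV-1, EV-2 and EV-3. SAMD9 read 9.18, 8.87 and 9.33 in group 1, against 6.94, 6.86 and 7.22 in vector cells. UBE2L6, a conjugating enzyme for the ubiquitin-like ISG15, read 10.21, 10.16 and 10.22 in group 1 and 8.02, 7.96 and 8.51 in vector cells; its second, dim probe gave -0.05. EV-3 was the highest vector array in each of these 3 genes.

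Over the list the arrays averaged 0.51 in KD1-1, 0.66 in KD1-3 and 0.50 in KD2-2, against -0.10, -0.15 and 0.25 in EV-1, EV-2 and EV-3. Without EV-3, 13 members were higher and 0 lower, and EV-3 lay between the other vector arrays and group 1 in this list. EPSTI1, an interferon-induced gene, differed by 1.34. OAS3, which senses double-stranded RNA, was lower, at 7.58, 8.53 and 7.53 in group 1 and 8.74, 8.88 and 9.05 in vector cells. The labelled test called 2 members higher and 1 lower, OAS3 (limma adjusted p = 0.0307, up to 0.126 without EV-3 and lost without EV-1, EV-2, KD1-1 or KD2-1 too). OAS3 also missed the fold rule without KD1-1 or KD2-2. In group 2 the list's median was -0.04 from the same vector arrays. Unlike the cell cycle lists, KD1-3 was nearest to vector in 5 of 10 members past the rule; that contrast between lists was not tested.

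Of 20 genes of MHC antigen presentation 2 were higher (10%, beside 6.07% of all genes) and 0 lower, with 1 higher without EV-1. HLA-DRA, a class II chain, read 7.68, 7.35 and 7.93 in group 1, against 6.53, 6.31 and 6.16 in vector cells, and rose in the labelled test by 1.21 (SE 0.19, limma adjusted p = 0.00555); a second dim probe gave -0.19. PSMB9, a subunit of the immunoproteasome, differed by 1.04.

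The neuroendocrine and islet list moved in both directions, with 6 of 26 tested members higher (23.1%, beside 6.07%) and 4 lower (15.4%, beside 7.23%). DDC, the decarboxylase that makes serotonin and dopamine, read 12.77 in KD1-1, 12.08 in KD1-3 and 12.81 in KD2-2, against 10.19, 10.20 and 10.21 in vector cells. GHRL, the ghrelin precursor, read 8.55, 8.17 and 8.65 in group 1, against 6.10, 6.14 and 6.33 in vector cells. SST read 8.91, 7.45 and 8.92 in group 1 and 7.06, 6.76 and 5.54 in vector cells. These hormone and amine genes were higher on every group 1 array, although SST varied by over 1 within each group.

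SLC18A1, the vesicular transporter that loads amines into granules, read 7.27, 7.08 and 7.13 in group 1, against 9.32, 9.11 and 8.90 in vector cells. NKX2-2, a homeobox gene of the islet lineage, read 9.07, 9.33 and 9.45 in group 1, against 10.89, 11.18 and 11.04 in vector cells. In the labelled test SLC18A1 fell by 2.06 (SE 0.18, limma adjusted p = 0.00128), NKX2-2 fell by 2.09 (SE 0.26, limma adjusted p = 0.00276), and GHRL rose by 2.55 (SE 0.26, limma adjusted p = 0.00163). DDC and SST did not pass (limma adjusted p = 0.134 and 0.0629). SCG5, the chaperone 7B2 of prohormone convertase 2, differed by 1.80; its labelled call (limma adjusted p = 0.0313) was lost without each vector array, KD1-1 or KD2-1 (adjusted p up to 0.144).

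Of 28 genes of regulated exocytosis 1 was higher and 2 lower (3.57% and 7.14%, at or below the 6.07% and 7.23% of all genes). SYT11 rose in the labelled test by 2.32 (SE 0.42, limma adjusted p = 0.00951), a call lost without EV-1 or EV-3 (adjusted p up to 0.0564). VAMP3, a vesicle SNARE, read 8.56, 8.91 and 8.67 in group 1, against 10.57, 10.51 and 10.51 in vector cells, and differed by -0.01 in group 2. CPLX1, which clamps SNARE complexes, differed by -1.53 and fell in the labelled test (limma adjusted p = 0.0175), though not without any single vector array (adjusted p up to 0.0861).

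Genes of hepatic and foregut type were higher in 7 of 28 tested members (25%, beside 6.07% of all genes) and lower in 0, with a median of 0.56. TTR, the thyroid hormone carrier transthyretin, read 11.20 in KD1-1, 10.22 in KD1-3 and 11.13 in KD2-2, against 8.01, 7.89 and 7.86 in vector cells. SERPINF2, the plasmin inhibitor, read 7.96, 6.99 and 7.89 in group 1 and 4.98, 4.77 and 4.99 in vector cells, where it was detected on 1 of 3 arrays. TTR rose in the labelled test by 2.95 (SE 0.33, limma adjusted p = 0.00207) and SERPINF2 by 2.48 (SE 0.29, limma adjusted p = 0.0022). Complement factor B (CFB) differed by 1.97 and SERPINF1, a secreted inhibitor of vessel growth, by 1.77. In group 2 the same 4 genes differed by 2.97, 2.26, 0.54 and -0.78 from the shared vector arrays. The labelled test called 9 members higher and 1 lower.

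Of 43 genes of MYC and ribosome biogenesis 9 were lower (20.9%, beside 7.23%) and 1 higher, with a median of -0.52; the labelled test called 15 lower and 1 higher. MXD3, a MAX partner, went undetected in group 1 and was at least 3.35-fold lower than in vector cells. SRM, spermidine synthase, read 8.51, 8.82 and 8.68 in group 1, against 10.12, 10.17 and 10.30 in vector cells. MXD4, a MAX partner that opposes MYC, read 9.81, 9.31 and 9.71 in group 1 and 8.25, 8.03 and 8.06 in vector cells. In the labelled test MXD3 fell by 1.82 (SE 0.23, limma adjusted p = 0.00276), SRM fell by 1.87 (SE 0.23, limma adjusted p = 0.00265) and MXD4 rose by 1.36 (SE 0.17, limma adjusted p = 0.00261). NOP56, a nucleolar protein, differed by -1.39 and MYCN by -1.25; the call of MYCN (limma adjusted p = 0.00817) was lost without EV-1 or EV-2 (adjusted p up to 0.0536). The 39 cytosolic ribosomal protein genes had 0 members past the rule.

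The 41 genes of oxidative phosphorylation also had 0 members past the rule, with 1 lower and 1 higher without KD1-3 and 1 higher without EV-3, but 31 of them lay higher on all group 1 arrays than on all vector arrays, beside 4308 of 12498 genes with this order, and the median was 0.33. The labelled test called 6 higher and 0 lower. Of 31 glycolysis and hypoxia genes 5 were higher (16.1%, beside 6.07% of all genes) and 2 lower (6.45%, beside 7.23%), with 1 lower without KD2-2 or EV-2. NDRG1, a gene induced by hypoxia, read 10.16, 9.70 and 10.08 in group 1, against 8.07, 8.19 and 8.35 in vector cells. INSIG2, which retains the sterol sensor in the endoplasmic reticulum, rose in the labelled test by 1.36 (SE 0.15, limma adjusted p = 0.00188). PFKFB4 and ALDOC, enzymes of glycolysis, differed by 1.29 and 1.27, the hypoxia factor EPAS1 by -1.25 and the glycolytic enzyme TPI1 by -1.05. EPAS1 fell by 1.09 in the labelled test (SE 0.18, limma adjusted p = 0.00672).

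Of 28 genes of cholesterol and fatty acid synthesis 1 was higher and 1 lower (3.57% each, below the 6.07% and 7.23% of all genes). Without KD1-3, 2 were higher and 3 lower, 2 were higher without KD2-2 or EV-1, and 0 without KD1-1. HMGCS1, the synthase that precedes HMG-CoA reductase, read 13.42, 13.04 and 13.11 in group 1, against 12.22, 12.13 and 11.93 in vector cells. DHCR7, the last enzyme of cholesterol synthesis, read 7.76, 8.0 and 7.80 in group 1 and 9.94, 9.97 and 9.59 in vector cells, and fell by 1.88 in the labelled test (SE 0.16, limma adjusted p = 0.000932). These 2 genes of 1 pathway thus lay on opposite sides of vector. Of 40 genes of the unfolded protein and ATF4 response 2 were higher and 4 lower (5% and 10%, near the 6.07% and 7.23% of all genes), with 7 lower without KD1-3. SLC7A5, an amino acid transporter, read 8.28, 8.49 and 8.43 in group 1, against 10.00, 9.79 and 9.93 in vector cells, and fell by 1.56 in the labelled test (SE 0.12, limma adjusted p = 0.000932). The transcription factor ATF5 differed by -1.65, the pseudokinase TRIB3 by -1.25 and the disulfide isomerase PDIA4 by -1.19, while DDIT4, an inhibitor of mTORC1, differed by 1.44 and SEL1L, of the degradation machinery of the endoplasmic reticulum, by 1.41.

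In the list of AKT, TSC and mTOR signalling 2 of 32 genes were higher (6.25%, beside 6.07% of all genes) and 4 lower (12.5%, beside 7.23%). AKT1, the kinase downstream of PI3-kinase, read 9.06 in KD1-1, 9.58 in KD1-3 and 9.09 in KD2-2, against 11.22, 11.14 and 11.18 in vector cells. It fell by 1.61 in the labelled test (SE 0.24, limma adjusted p = 0.00542); a second bright probe gave -2.05 in group 1 and a dim other probe 0.28. The phosphatase 2A subunits PPP2R5C and PPP2R2A were lower, the first at least 2.56-fold at its brightest probe, which group 1 did not detect, the second by a difference of -1.39. The other, dimmer probe of PPP2R5C gave -0.66. EIF4EBP1, the translation repressor that mTORC1 phosphorylates, differed by -1.11, with a labelled call (limma adjusted p = 0.0198) lost without EV-2 or EV-3 (adjusted p up to 0.102). TSC1, a brake on mTORC1, differed by 1.25 and DEPTOR, an mTOR inhibitor, by 1.22. The labelled call of TSC1 (limma adjusted p = 0.0137) was lost without any single vector array (adjusted p up to 0.0724), and a dim probe gave 0.08.

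Among 43 RAB GTPases 1 was higher and 3 lower (2.33% and 6.98%, below the 6.07% and 7.23% of all genes), with 0 higher without KD1-1 or EV-2. RAB22A, a GTPase of endosomes, read 6.51, 6.63 and 6.54 in group 1, against 8.80, 8.71 and 8.95 in vector cells. RAB5B, of early endosomes, read 8.24, 8.58 and 8.15 in group 1 and 10.55, 10.51 and 10.59 in vector cells. Both passed the labelled test (limma adjusted p = 0.0395 and 0.0262) and lost the call without any single vector array, KD1-1 or KD1-3 (adjusted p up to 0.145 and 0.105), and RAB22A also without KD2-1. RAB26 differed by -1.30 and RAB18 by 1.08, and neither passed the labelled test (limma adjusted p = 0.163 and 0.0634).

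Of 40 genes of YAP and TEAD targets and of matrix and adhesion 4 were higher (10%, beside 6.07% of all genes) and 6 lower (15%, beside 7.23%). TEAD2, a DNA-binding partner of YAP, read 7.03, 8.0 and 7.17 in group 1, against 9.78, 9.75 and 9.88 in vector cells. VIM, the intermediate filament vimentin, read 10.90, 11.16 and 10.84 in group 1, against 12.66, 12.70 and 12.63 in vector cells. CCN2, a YAP target that binds matrix, read 12.83, 12.29 and 12.33 in group 1 and 11.03, 10.14 and 10.31 in vector cells, and rose in the labelled test by 2.58 (SE 0.41, limma adjusted p = 0.00635). So a YAP partner was lower and a YAP target higher. The protease MMP10 differed by 2.37, the protease PLAU by -1.57 and the integrin ITGAV by -1.45. TEAD2 and MMP10 passed the labelled test (limma adjusted p = 0.0194 and 0.0344) but not without any single vector array (adjusted p up to 0.0884 and 0.156), and MMP10 also lost its call without KD1-1, KD1-3 or KD2-1.

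Of 22 genes of WNT pathway feedback 4 were lower (18.2%, beside 7.23%) and 1 higher. Below DKK1 came the receptors FZD3 at -1.68 and FZD5 at -1.46 and the transcription factor SP5 at -1.27. LGR4, a receptor for R-spondins, read 8.35, 8.24 and 8.21 in group 1, against 6.92, 7.03 and 6.88 in vector cells. SP5 fell by 1.33 in the labelled test (SE 0.19, limma adjusted p = 0.00469) and LGR4 rose by 1.43 (SE 0.15, limma adjusted p = 0.00186). Of 28 apoptosis regulators 2 were higher and 3 lower (7.14% and 10.7%, near the 6.07% and 7.23% of all genes). CASP2, an initiator caspase, read 8.84, 9.50 and 9.33 in group 1, against 11.12, 11.15 and 11.10 in vector cells, and fell by 1.60 in the labelled test (SE 0.24, limma adjusted p = 0.00485). The death promoter HRK differed by -1.70 and the survival protein BCL2 by -1.66; other probes of BCL2 gave -1.32 and -0.19. BIK, a death promoter not detected on any vector array, was at least 2.58-fold higher and rose in the labelled test by 1.29 (SE 0.21, limma adjusted p = 0.00677). BMF, another, differed by 1.41.

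**Figure D5:**
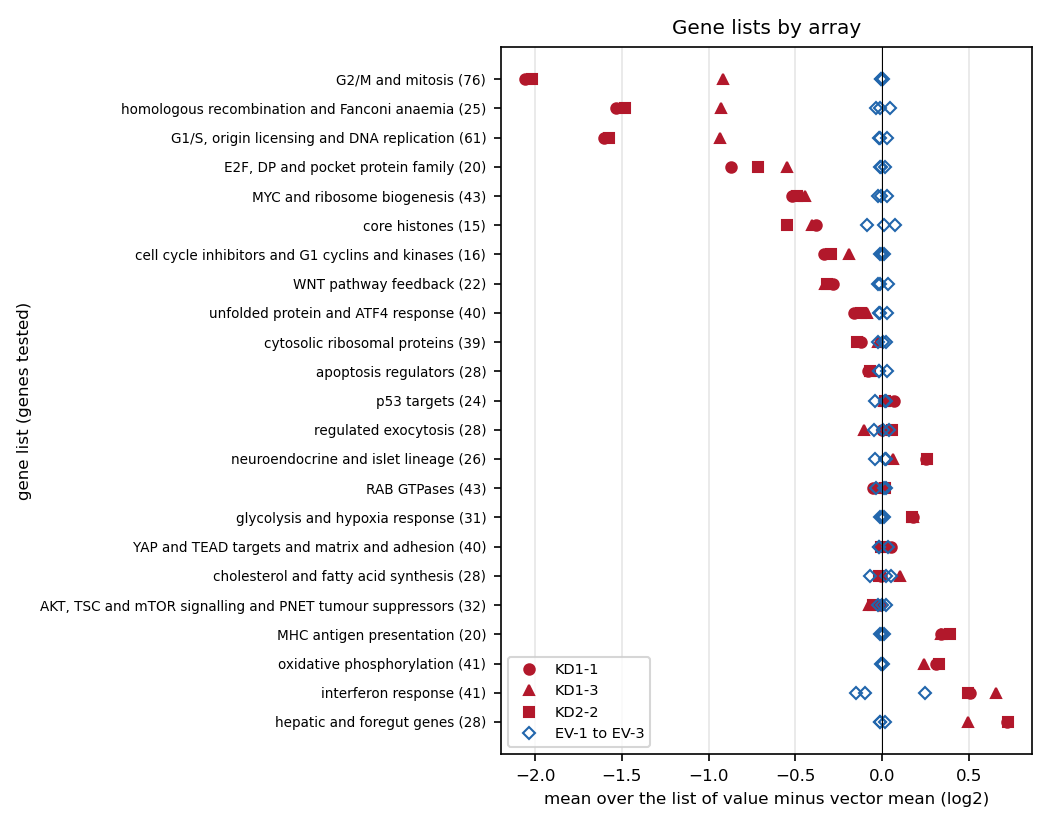
Mean over each gene list of the value minus the vector mean (log2), by array, for 23 lists ordered by the median difference of group 1; red marks are KD1-1 (circle), KD1-3 (triangle) and KD2-2 (square), open blue diamonds the vector arrays. The 3 lowest lists are those of cell division and recombination, where KD1-3 lies nearer to vector, and in the interferon list EV-3 lies at 0.25, apart from the other vector arrays.

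Some group 1 differences were not shared in size or sign with group 2. Group 2 is compared with the same vector arrays, so its values are given beside them and not as a second result. VSTM2L read 10.69, 10.09 and 10.59 in group 1, 5.22, 5.40 and 6.23 in group 2, and 7.30, 7.45 and 7.18 in vector cells. NELL1 read 10.15, 9.10 and 10.06 in group 1, 5.15, 5.01 and 5.28 in group 2, and 6.63, 6.42 and 6.07 in vector cells. AUH, a mitochondrial enzyme of leucine breakdown, read 9.69, 9.39 and 9.73 in group 1, 5.92, 5.71 and 5.84 in group 2, and 8.20, 8.19 and 8.25 in vector cells. All 3 genes lay above vector in group 1 and below it in group 2.

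KCNMB2, a potassium channel subunit, read 10.09, 9.68 and 10.33 in group 1, 6.05, 6.23 and 6.06 in group 2, and 7.85, 7.74 and 7.69 in vector cells. DKK1 had the opposite order, at 5.97, 5.91 and 5.79 in group 1, 11.99, 12.02 and 11.45 in group 2, and 9.57, 9.33 and 9.04 in vector cells. RAC1 read 8.74, 8.74 and 8.64 in group 1, 12.42, 12.46 and 12.37 in group 2, and 11.99, 11.97 and 11.95 in vector cells. TGM3, TXNDC12, S100A16 and B4GALT5, the others most separated between the groups, differed by 3.67, -3.81, -3.16 and -3.49 from vector in group 1, and by -0.24, -0.35, 0.22 and -0.31 in group 2. None of these 10 genes passed the labelled test, which averages the 2 profiles (limma adjusted p from 0.179 to 0.881). The groups were formed from the profiles, so these gaps follow in part from the choice of arrays.

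Markers of other cell types were mostly too dim to test, 28 of 51 in all 5 lists. Of 9 tested exocrine pancreas markers 2 were higher in group 1 (22.2%, beside 6.07% of all genes), the mucin MUC1 at 1.57 and the keratin KRT19 at 1.09, and 0 lower. Of 3 endothelial markers 2 were higher and of 3 markers of the HEK 293T packaging line 2, beside the same 6.07%. VWF differed by 1.51 and KDR by 1.06, and the neurofilaments NEFM and NEFL differed by 1.27 and 1.04. The other tested endothelial marker differed by 0.46. The other tested HEK 293T marker went the opposite way, at -0.64, and was lower on every group 1 array than on every vector array. Of the fibroblast and leukocyte markers 8 of 10 and 6 of 11 were too dim, and 0 of the 2 and 4 tested were past the rule. Both tested fibroblast markers still lay higher on every group 1 array than on every vector array, as did 4308 of 12498 genes. For the fibroblast list the array means were 0.49 to 0.72 in group 1 and -0.09 to 0.06 in vector cells. For the leukocyte list they were -0.12 to 0.17 and -0.05 to 0.06. By list, the array means in group 1 ran from 0.29 to 0.43 for exocrine, 0.96 to 1.12 for endothelial and 0.52 to 0.61 for HEK 293T markers, against -0.03 to 0.04, -0.03 to 0.03 and -0.11 to 0.08 in vector cells. Their part in the other differences was not tested.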

How the data were processed

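RNA of BON-1 cells was measured on 9 single-colour Illumina arrays, 3 each labelled shRNA 1, shRNA 2 and vector. The deposited signal intensities of 47231 probes are neither background-subtracted nor normalized, per the file headers and the values. Beside each signal the deposited table holds a detection p-value. Per the submitters' processing notes GenomeStudio was used; no version is named. The authors' own deposited value table, intensity on a linear scale, served as an alternative, and no source used here says how it was normalized.

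With limma 3.58.1 in R 4.3.3, background was removed by nec, whose negative control level is inferred from those p-values (offset 16), then arrays were quantile normalized and taken to log2. On this scale the differences of dim genes come out too small. Probes stayed in where the detection p was under 0.05 on 3 arrays or more (22011, of which 5267 had no gene name). The platform annotation gave 1 symbol to 30108 probes and several to 8. The brightest kept probe stood for each of the 3358 genes with several, which left 12498 genes. Promoters came from RefSeq (GRCh38.p14).

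The labelled test used lmFit and eBayes on all 9 arrays, with a mean per labelled group and Benjamini-Hochberg adjustment over all genes. Where a side was undetected on all its arrays, the fold is given as "at least", against the lowest signal among detected probes. The steps were tested on simulated data. Genes were named by rule: RABL6, the 12 furthest from vector in each direction, up to 4 per list in its main direction and 2 in the other, the 5 most separated from group 2 each way, and the 5 with KD1-3 furthest from its partners each way; 1 gene so chosen is not reported here. The members, the 28 lists and the alternatives were chosen with earlier results of these data known. Deviations from the labelled group means correlated at -0.89 to 0.15 between same-numbered arrays. The negative values are those of 2 knockdown arrays. Each label mixes the 2 profiles, so these values cannot show whether the numbers mark pairs. Same-numbered vector and knockdown arrays correlated at 0.03 to 0.15. The replicate numbers were not taken as pairs, and whether they mark pairs is not settled. Between group 1 and vector arrays alone the correlations were 0.17, 0.11 and 0.13; that comparison has no test, and pairing leaves its mean differences as they are.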

Additional observations from a re-analysis of the deposited data

Results flagged for a closer look

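For 18 named genes every array of group 1 lay on 1 side of every vector array and every array of group 2 on the other side. Naming by rule took in the genes most separated from group 2, so their place here follows in part from that choice. The share of all genes with this order was not counted. By the fold rule applied to both groups, 22 of 12498 genes were higher in group 1 and lower in group 2, and 14 the reverse. The difference between the groups was not tested, since the groups were formed from these profiles and share the vector arrays. Values are mean differences from vector on the log2 scale.

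Higher in group 1 and lower in group 2 were the secreted protein NELL1 (3.40 in group 1, -1.23 in group 2), VSTM2L (3.15 and -1.69), the potassium channel subunit KCNMB2 (2.27 and -1.65) and the mitochondrial enzyme AUH (1.39 and -2.39). The vessel growth inhibitor SERPINF1 differed by 1.77 in group 1 and -0.78 in group 2, the mucin MUC1 by 1.57 and -0.43, and the clotting factor carrier VWF by 1.51 and -0.51. Among immune genes EPSTI1 differed by 1.34 and -0.87 and the immunoproteasome subunit PSMB9 by 1.04 and -1.59. VWF and EPSTI1 were undetected on every group 2 array, so the size of their group 2 differences is set by background. VWF was detected on 2 of 3 vector arrays. The glycolytic enzymes PFKFB4 and ALDOC differed by 1.29 and 1.27 in group 1, and by -0.96 and -0.74 in group 2. The mTOR inhibitor DEPTOR differed by 1.22 in group 1 and -0.45 in group 2.

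Lower in group 1 and higher in group 2 were the WNT inhibitor DKK1 (-3.42 in group 1, 2.51 in group 2), the GTPase RAC1 (-3.26 and 0.45), the death promoter HRK (-1.70 and 0.47) and the transcription factor ATF5 (-1.65 and 0.28). The integrin ITGAV differed by -1.45 in group 1 and 0.89 in group 2, and the phosphatase subunit PPP2R2A by -1.39 and 0.52.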

How the results depend on the processing

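No gene named by the rule changed direction in group 1 against vector under the alternatives tried, and the G2/M median stayed between -2.105 and -1.284. The counts of 759 higher and 904 lower became 292 and 472 with no background correction, 495 higher with an offset of 50, 391 and 595 over the 3 arrays labelled shRNA 1, 2047 and 1888 at a 1.5-fold difference, and 94 and 132 at 4-fold; leaving out single arrays gave 681 to 888 and 858 to 1019. The G1/S median of -1.41 became -0.974 with no background correction. The interferon median of 0.44 became 0.23 with no background correction, 0.323 with median centring, 0.314 over the 3 arrays labelled shRNA 1 and 0.553 over the 2 group 1 arrays labelled shRNA 1; leaving out single arrays gave 0.39 to 0.553. The cause was not tested. Medians of the p53, apoptosis, MHC, neuroendocrine, exocytosis, cholesterol, glycolysis, AKT, RAB and YAP lists changed sign under at least 1 alternative, so no direction is given for them. In the labelled test median centring called 613 genes higher, and leaving out single arrays gave 257 to 1307 higher and 232 to 1276 lower. With the replicate block it called 550 higher and 556 lower; the numbers were not taken as pairs there. Signal near background limits dim genes: 51 genes past the rule and higher were undetected on every vector array, and 19 lower ones on every group 1 array. A gene detected only in group 1 or only in vector cells was kept through that side alone, so it could only come out higher there.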

Other observations

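Genes of gut epithelium and enteroendocrine cells were grouped after their values were seen, and each family is given whole, so these counts support nothing; CHGA, GPBAR1 and PLA2G10, which are described above or stand in a list above, are among them. Of 27 such genes 18 were tested, and 10 were higher in group 1 by the fold rule (beside 6.07% of all genes) and 0 lower, with differences from -0.50 to 3.89. FFAR4, a receptor for long-chain fatty acids, read 8.10 in KD1-1, 7.39 in KD1-3 and 8.28 in KD2-2, against 4.84, 5.36 and 5.19 in vector cells. GUCA2A, the gut hormone guanylin, read 8.05, 7.01 and 8.15 in group 1 and 5.01, 5.29 and 5.30 in vector cells. GUCA2B, uroguanylin, was undetected on every vector array and at least 4.29-fold higher in group 1. The brush-border enzyme SI, the protease TMPRSS2 and the adhesion protein CEACAM6 differed by 2.15, 2.09 and 2.06. CDH16, which is counted among the 10 although it is a cadherin of kidney, differed by 2.28.

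The 14-3-3 and G protein families were likewise picked after their values were seen, so their counts support nothing either. The 14-3-3 proteins, adaptors that bind phosphorylated partners, moved unevenly. Of 7 members 2 were lower, beside 7.23% of all genes, and 0 higher. YWHAH read 9.87 in KD1-1, 10.39 in KD1-3 and 10.08 in KD2-2, against 12.64, 12.58 and 12.68 in vector cells, while YWHAB read 12.85, 12.99 and 12.94 in group 1 and 12.61, 12.63 and 12.71 in vector cells. Of the heterotrimeric G protein subunits, 2 of 3 tested beta and 3 of 10 tested gamma genes were lower, beside the same 7.23%, and 1 gamma gene was higher, beside 6.07%. GNB2 differed by -2.30 and GNG12 by -2.19, and GNB5, undetected on every group 1 array, was at least 3.47-fold lower. In group 2, compared with the same vector arrays, YWHAH, GNB2 and GNG12 differed by -0.14, 0.32 and -0.10.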
